A study of Homo sapiens with 12 samples.

Results

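A set of 10 genes of the extracellular matrix, covering basement membrane components, matricellular proteins and TIMPs, was followed across tumour spheroids of HepG2 cells (an established line from a human hepatocellular carcinoma) with HIF-1α knocked down, with HIF-2α knocked down, or wild type, on 4 arrays each. They are 10 of the 18404 genes in the table, taken from a list: NID1, SPARC, NPNT, TIMP1, TIMP2, TIMP3, COL4A1, COL4A2, LAMB1 and LAMC1. The probe set used for a gene was the brightest over the 12 arrays among those annotated with exactly 1 gene symbol, and all 10 genes had one. TIMP3 alone among them had 2 such probe sets. The genes were chosen by name with differences between these groups already in view, among them the SPARC difference in HIF-1α knockdown and the NPNT difference in HIF-2α knockdown, and the probe sets were chosen by brightness, so the counts below describe these genes and are not evidence that the matrix as a whole responds.

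All 3 groups were grown as floating spheroids in stirred flasks and were harvested at 10 days of age for total RNA, which was amplified with a kit for small inputs (applied for 250 microdissected cells, per the labels) before biotin labelling and hybridisation. The groups differ, as far as the labels say, in the targeted gene: HIF-1α, HIF-2α or none. How the knockdowns were made, whether the wild type carried a control construct, whether a knockdown line was 1 clone, and which oxygen level the cultures had is not given in the sources used here. Nothing in the labels says that the 4 arrays of a group came from separate cultures, so the p-values stand for the spread among arrays of a group, which may be technical. The labels name spheroids as the source of the RNA and the amplification step as one applied for microdissected cells, and which part of a spheroid was taken is not stated. In such bulk RNA fewer cells of a type and less RNA per cell cannot be told apart.

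The basement membrane is a thin sheet of matrix under epithelial and around endothelial cells. Type IV collagen and laminin each form a network in it, and nidogen binds both and links them. Matricellular proteins such as SPARC and nephronectin sit in the matrix and act mainly on how cells attach and signal, and the TIMPs are secreted inhibitors of the metalloproteinases that cut matrix proteins. In the liver a continuous basement membrane is missing from the normal sinusoid, and hepatocellular carcinomas often lay down matrix of this kind. HIF-1α and HIF-2α are the subunits through which oxygen controls the hypoxia-inducible factors, which bind DNA at a short core sequence called the hypoxia response element.

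Promoter sequences of 5 of the 6 genes called between the knockdowns are shown because the perturbed proteins are DNA-binding factors. They are the 250 bases upstream of the annotated start, from RefSeq on build GRCh38.p14, written 5′ to 3′ on the strand of the gene. Of the 10 genes 9 matched an entry, TIMP2 being the other. Capitals mark the letters ACGTG or GCGTG, the core of the hypoxia response element, searched on both strands, so that CACGC is GCGTG read on the other strand.
NID1 (chr1:236065091-236065340, minus strand): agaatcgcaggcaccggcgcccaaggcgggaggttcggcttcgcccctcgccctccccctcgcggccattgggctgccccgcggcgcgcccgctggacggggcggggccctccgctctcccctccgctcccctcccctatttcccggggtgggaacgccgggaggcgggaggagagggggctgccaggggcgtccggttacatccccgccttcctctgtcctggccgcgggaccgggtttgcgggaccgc
SPARC (chr5:151686916-151687165, minus strand): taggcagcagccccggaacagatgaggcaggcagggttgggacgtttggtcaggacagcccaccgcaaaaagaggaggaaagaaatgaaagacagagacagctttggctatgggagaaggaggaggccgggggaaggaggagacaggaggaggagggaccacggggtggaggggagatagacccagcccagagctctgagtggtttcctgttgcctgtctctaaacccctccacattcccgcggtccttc
NPNT (chr4:105895221-105895470, plus strand): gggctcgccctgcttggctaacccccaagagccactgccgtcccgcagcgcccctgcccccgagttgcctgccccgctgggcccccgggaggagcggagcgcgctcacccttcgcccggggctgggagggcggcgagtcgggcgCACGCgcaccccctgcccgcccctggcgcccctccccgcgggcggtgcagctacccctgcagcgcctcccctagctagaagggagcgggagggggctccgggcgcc
TIMP1 (chrX:47582186-47582435, plus strand): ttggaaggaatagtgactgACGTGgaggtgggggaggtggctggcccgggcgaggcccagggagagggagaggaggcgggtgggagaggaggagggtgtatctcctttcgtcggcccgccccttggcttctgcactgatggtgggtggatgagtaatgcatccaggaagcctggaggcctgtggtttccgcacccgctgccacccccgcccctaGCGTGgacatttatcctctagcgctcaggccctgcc
TIMP3 (chr22:32801455-32801704, plus strand): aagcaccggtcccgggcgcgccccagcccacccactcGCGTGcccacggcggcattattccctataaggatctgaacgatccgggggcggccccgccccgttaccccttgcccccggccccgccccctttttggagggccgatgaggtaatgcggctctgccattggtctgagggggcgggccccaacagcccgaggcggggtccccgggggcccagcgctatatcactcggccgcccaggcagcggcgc

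The NID1 and SPARC windows held 0 matches. NPNT had 1 match, at 106 to 102 bases upstream of the start. TIMP1 had 2, an ACGTG at 231 to 227 bases and a GCGTG at 36 to 32 bases upstream. TIMP3 had 1, at 213 to 209 bases upstream. Among the members whose levels did not pass the test, COL4A2 had 1 match, at 220 to 216 bases, and COL4A1, LAMB1 and LAMC1 had 0. The same letters occurred in 43.2% of all 35116 promoter windows of this length, 15172 of them, so a match is common and is a description only.

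COL4A1 and COL4A2 encode the α1 and α2 chains that assemble into 1 collagen IV molecule, and their genes lie head to head on chromosome 13. Their starts are separated by 126 bases, shown on the plus strand because the interval is upstream of both genes. Capitals mark a CCAAT box (the letters CCAAT, both strands), found once here. Of all promoter windows 32% held these letters, but those windows have 250 bases and are longer than this interval.
COL4A1 and COL4A2 (chr13:110307158-110307283, plus strand): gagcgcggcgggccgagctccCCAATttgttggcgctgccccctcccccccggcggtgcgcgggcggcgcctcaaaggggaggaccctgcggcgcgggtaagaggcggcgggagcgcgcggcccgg

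The precision is set by the 4 arrays in each group. Array medians lay between 7.29 and 7.41 on the log2 scale. On 3 arrays (HIF-2α knockdown replicate 4 and replicates 1 and 2 of wild type) the dimmest probe sets were brighter (0.1 percentile of 6.33 to 6.35, against 6.11 to 6.23 on the other 9). For the listed matrix genes and HIF1A, calls that are lost without these raised-floor arrays are given with and without them. For the related genes and markers named below, only the loss of a call is stated, in places with the highest adjusted p over the alternatives. HIF-2α knockdown replicate 2 stood farthest from its nearest array, with a root mean square difference of 0.228. The targeted transcripts followed their labels. HIF1A averaged 9.46 ± 0.18 in HIF-1α knockdown arrays, 10.94 ± 0.39 in HIF-2α knockdown arrays and 10.70 ± 0.08 in wild type arrays (log2, SD, n = 4 each), 42.5% of wild type in HIF-1α knockdown (log2 difference -1.23, limma adjusted p = 0.00241), and with the raised-floor arrays removed the adjusted p was 0.103 at a difference of -1.24. EPAS1, which encodes HIF-2α, was at 46.0% of wild type in HIF-2α knockdown (log2 difference -1.12, limma adjusted p = 0.000206) and differed by -0.03 in HIF-1α knockdown (limma adjusted p = 0.938).

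Between the 2 knockdowns nidogen, TIMP2 and TIMP3 were called in the main fit and under all 22 alternative settings. SPARC, nephronectin and TIMP1 were called in the main fit and under 18, 16 and 15 of those settings. The collagen IV and laminin chains did not differ detectably. In HIF-2α knockdown against HIF-1α knockdown arrays 6 of the 10 genes passed an adjusted p of 0.05, 5 lower (NID1, SPARC, TIMP1, TIMP2 and TIMP3) and 1 higher (NPNT), and in none of the 6 did the arrays of the groups overlap (9.08% of all genes had no overlap there). Against wild type, NID1 and TIMP3 were called higher in HIF-1α knockdown in the main fit, and under 16 and 12 of the 22 alternative settings. Both calls were lost without the raised-floor arrays. The SPARC difference in HIF-1α knockdown and the NPNT difference in HIF-2α knockdown, with which the genes were listed, are described below without a test. The calls of SPARC and NPNT between the knockdowns use those same knockdown arrays and are no independent support. The groups did not overlap for 4 members in HIF-1α knockdown against wild type (7.84% of all genes) and for 3 in HIF-2α knockdown against wild type (5.31%). Of all 18404 genes 2.77% passed between the knockdowns (0.967% higher and 1.8% lower), 0.962% in HIF-1α knockdown against wild type (0.815% higher) and 0.788% in HIF-2α knockdown against wild type (0.478% higher), and nothing is read from the members' larger share because they were listed with these results known. The comparisons share arrays, each group entering 2 of them, and are set side by side without being combined.

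**Figure D1:**
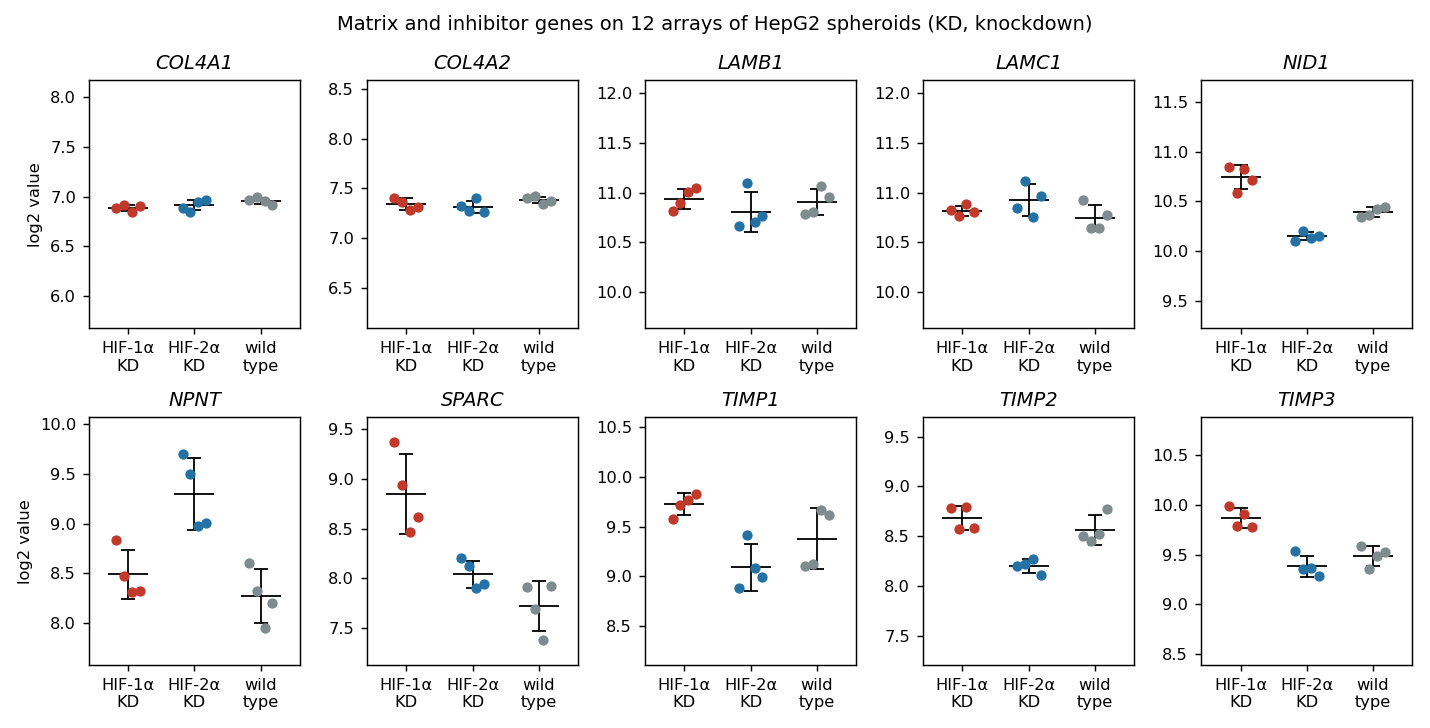
Log2 level of each of the 10 genes on every array (points) with the group mean ± SD (bar, n = 4), groups from left to right HIF-1α knockdown, HIF-2α knockdown and wild type; each panel spans the same number of log2 units on its own range. NID1 falls into 3 separate groups, SPARC is highest in HIF-1α knockdown, NPNT is highest in HIF-2α knockdown, and the collagen IV panels are nearly flat.

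NID1 encodes nidogen-1, which connects the laminin and collagen IV networks. Its log2 level was 10.84, 10.58, 10.82 and 10.71 in HIF-1α knockdown, 10.10, 10.20, 10.13 and 10.15 in HIF-2α knockdown, and 10.34, 10.36, 10.42 and 10.44 in wild type. Every HIF-1α knockdown array lay above every wild type array, and every wild type array above every HIF-2α knockdown array, an arrangement found in 14 of the 18404 genes (0.0761%). That order was taken from NID1 itself and other orders of separate groups were not counted, so the share is a description only. In HIF-2α knockdown NID1 was 66.4% of its level in HIF-1α knockdown (log2 difference -0.59, SE 0.06, 95% interval -0.72 to -0.46, limma adjusted p = 0.000149), and the adjusted p stayed between 0.000132 and 0.00539 under the 22 alternatives run. NID1 rose in HIF-1α knockdown, where it was 1.27-fold higher than in wild type (0.34, SE 0.06, limma adjusted p = 0.0171). That call was lost after quantile normalization (adjusted p = 0.0689), after median centring of the arrays (0.0567), without the raised-floor arrays (0.188), with a trended robust variance prior (0.0908), and without wild type replicate 1 or HIF-1α knockdown replicate 3 (0.0127 to 0.0731 over the 12 fits that leave out 1 array). Against wild type, the HIF-2α knockdown difference of -0.25 (interval -0.38 to -0.12) had an adjusted p of 0.086 by limma, and it passed after quantile normalization (-0.31, adjusted p = 0.0412).

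SPARC, a collagen-binding glycoprotein also called osteonectin, had the widest spread within a group. It measured 9.37, 8.94, 8.47 and 8.62 in HIF-1α knockdown, 8.21, 8.12, 7.90 and 7.94 in HIF-2α knockdown, and 7.91, 7.69, 7.38 and 7.92 in wild type, as log2 levels. All 4 HIF-1α knockdown arrays lay above all arrays of both other groups, while HIF-2α knockdown and wild type overlapped. In HIF-1α knockdown SPARC was 2.18-fold higher than in wild type (log2 difference 1.13, SE 0.17), a difference that was known when the gene was listed and is given without a test. It was 1.20 without the raised-floor arrays. In HIF-2α knockdown it was 0.32 above wild type (interval -0.05 to 0.68, limma adjusted p = 0.498). It was 1.75-fold lower in HIF-2α than in HIF-1α knockdown (log2 difference -0.81, SE 0.17, interval -1.17 to -0.44, limma adjusted p = 0.0218), which uses the same HIF-1α knockdown arrays and is no independent support. The difference was -0.77 on the 9 arrays without a raised floor (adjusted p = 0.158), and the call was also lost without HIF-1α knockdown replicate 2 or HIF-2α knockdown replicate 3 or 4 (0.0141 to 0.0741 over the fits that leave out 1 array).

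NPNT encodes nephronectin, a basement membrane ligand of the integrin α8β1, and it ran in the other direction. Its log2 level was 8.84, 8.47, 8.31 and 8.32 in HIF-1α knockdown, 9.70, 9.5, 8.98 and 9.01 in HIF-2α knockdown, and 8.61, 8.32, 7.95 and 8.20 in wild type. The HIF-2α knockdown arrays were all above the arrays of the other groups, and HIF-1α knockdown overlapped wild type. NPNT was 2.04-fold higher in HIF-2α knockdown than in wild type (log2 difference 1.03, SE 0.18), again a difference known when the gene was listed and given without a test. It was 1.32 without the raised-floor arrays and 0.89 to 1.14 over the fits that leave out 1 array. Against HIF-1α knockdown it was 1.75-fold higher in HIF-2α knockdown (0.81, SE 0.18, interval 0.43 to 1.19, limma adjusted p = 0.0261), on the same HIF-2α knockdown arrays. The second call was lost without the raised-floor arrays (0.91, adjusted p = 0.0561) and without HIF-1α knockdown replicate 2, 3 or 4 or HIF-2α knockdown replicate 1 or 2 (0.0193 to 0.103). In HIF-1α knockdown NPNT differed from wild type by 0.22 (interval -0.16 to 0.60, limma adjusted p = 0.689).

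The 3 TIMP genes all fell in HIF-2α knockdown relative to HIF-1α knockdown. TIMP1, a broad soluble inhibitor also known for effects on cell survival, measured 9.58, 9.72, 9.77 and 9.83 in HIF-1α knockdown, 8.88, 9.42, 9.08 and 8.99 in HIF-2α knockdown, and 9.10, 9.13, 9.67 and 9.62 in wild type. Wild type arrays were divided, replicates 1 and 2 lying within the HIF-2α knockdown range and replicates 3 and 4 within the HIF-1α knockdown range, and replicates 1 and 2 are raised-floor arrays. TIMP1 was 1.55-fold lower in HIF-2α than in HIF-1α knockdown (log2 difference -0.64, SE 0.14, interval -0.94 to -0.33, limma adjusted p = 0.0276). This call was lost after centring (-0.61, adjusted p = 0.0627) and without any 1 of HIF-1α knockdown replicates 2, 3 and 4 and HIF-2α knockdown replicates 1, 3 and 4 (0.0115 to 0.0981). Against wild type it differed by 0.35 in HIF-1α knockdown (interval 0.04 to 0.65, limma adjusted p = 0.292) and by -0.29 in HIF-2α knockdown (interval -0.59 to 0.01, limma adjusted p = 0.44). On the 9 arrays without a raised floor these differences were 0.08 (limma adjusted p = 0.866) and -0.52 (0.208).

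TIMP2 both inhibits metalloproteinases and takes part with MMP14 in activating MMP2. Its log2 level was 8.78, 8.57, 8.79 and 8.58 in HIF-1α knockdown, 8.20, 8.22, 8.27 and 8.11 in HIF-2α knockdown, and 8.50, 8.45, 8.52 and 8.77 in wild type. The HIF-2α knockdown arrays lay below all others, with HIF-1α knockdown and wild type overlapping. TIMP2 was 1.39-fold lower in HIF-2α than in HIF-1α knockdown (log2 difference -0.48, SE 0.08, interval -0.65 to -0.31, limma adjusted p = 0.00537), and its adjusted p stayed between 0.00136 and 0.0402 under the 22 alternatives. Against wild type the HIF-2α knockdown difference was -0.36 (SE 0.08, interval -0.53 to -0.19), at a limma adjusted p of 0.0542. It passed after quantile normalization (-0.42, adjusted p = 0.00575) and with the trended robust prior (adjusted p = 0.0328). In HIF-1α knockdown TIMP2 was 0.12 above wild type (interval -0.05 to 0.29, limma adjusted p = 0.599).

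TIMP3 is the family member that is bound to the matrix and that also inhibits ADAM and ADAMTS proteases. By its brighter probe set it measured 9.99, 9.79, 9.91 and 9.78 in HIF-1α knockdown, 9.54, 9.35, 9.36 and 9.28 in HIF-2α knockdown, and 9.59, 9.35, 9.49 and 9.53 in wild type. Here the HIF-1α knockdown arrays stood above all others and the remaining groups overlapped. TIMP3 was 1.39-fold lower in HIF-2α than in HIF-1α knockdown (log2 difference -0.48, SE 0.07, limma adjusted p = 0.00271, 0.00102 to 0.0200 under the 22 alternatives). It was 1.3-fold higher in HIF-1α knockdown than in wild type (0.37, SE 0.07, interval 0.22 to 0.53, limma adjusted p = 0.0255), a call lost after quantile normalization (0.0937), after centring (0.0513), without the raised-floor arrays (0.155), with the trended robust prior (0.0506), and without wild type replicate 1, 2 or 4 or HIF-1α knockdown replicate 1, 2 or 3 (0.017 to 0.101).

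The dimmer TIMP3 probe set differed from the brighter one on where wild type lay. It measured 8.90, 8.59, 8.74 and 8.71 in HIF-1α knockdown, 8.27, 8.39, 8.17 and 8.25 in HIF-2α knockdown, and 8.10, 7.93, 8.12 and 8.13 in wild type, so that wild type was lowest and no groups overlapped. By this probe set TIMP3 was 0.66 higher in HIF-1α knockdown than in wild type (limma adjusted p = 0.000932) and 0.47 lower in HIF-2α than in HIF-1α knockdown on the log2 scale (-0.47, limma adjusted p = 0.00363). The HIF-2α knockdown difference from wild type was 0.20 by the dimmer probe set (adjusted p = 0.263) and -0.11 by the brighter one (interval -0.26 to 0.05, limma adjusted p = 0.629). The fall in HIF-2α relative to HIF-1α knockdown therefore held by either probe set, and the position of HIF-2α knockdown relative to wild type did not.

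COL4A1 and COL4A2 had low levels that hardly varied. COL4A1 lay between 6.85 and 6.92 in HIF-1α knockdown, 6.85 and 6.97 in HIF-2α knockdown, and 6.92 and 7.0 in wild type. COL4A2 lay between 7.28 and 7.4, 7.26 and 7.4, and 7.34 and 7.42 in those groups in the same order. Among all probe sets 33.2% were dimmer than that of COL4A1 and 49.3% dimmer than that of COL4A2, and the files hold no detection calls, so whether these transcripts were above background was not determined. The log2 differences between HIF-2α and HIF-1α knockdown were 0.02 for COL4A1 (interval -0.07 to 0.12, limma adjusted p = 0.906) and -0.02 for COL4A2 (interval -0.13 to 0.08, limma adjusted p = 0.915). Against wild type COL4A1 differed by -0.07 in HIF-1α knockdown and -0.05 in HIF-2α knockdown, and COL4A2 by -0.05 and -0.07 (limma adjusted p of 0.588 to 0.773). Over the 12 arrays the pair gave a Pearson r of 0.52 (p = 0.0825, adjusted 0.248) and a Spearman rho of 0.41 (p = 0.193, adjusted 0.578) in two-sided permutation tests of 100000 resamples, adjusted over 3 pairs. Pearson's r was 0.25 without the 2 arrays farthest from the median. The permutations here and for the laminin genes below shuffled arrays across the 3 groups. Their p-values therefore ignore that arrays of a group share its condition.

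LAMB1 and LAMC1 encode the β1 and γ1 chains that are shared by many laminin trimers. LAMB1 measured 10.82, 10.90, 11.01 and 11.05 in HIF-1α knockdown, 10.67, 11.10, 10.71 and 10.77 in HIF-2α knockdown, and 10.79, 10.81, 11.07 and 10.96 in wild type. LAMC1 measured 10.83, 10.77, 10.89 and 10.81 in HIF-1α knockdown, 10.85, 11.12, 10.76 and 10.97 in HIF-2α knockdown, and 10.93, 10.65, 10.65 and 10.78 in wild type. All groups overlapped for both genes, and for both HIF-2α knockdown replicate 2 was the highest array of all. Between HIF-2α and HIF-1α knockdown the log2 difference was -0.13 for LAMB1 (interval -0.34 to 0.08, limma adjusted p = 0.672) and 0.10 for LAMC1 (interval -0.07 to 0.28, limma adjusted p = 0.697). The widest LAMC1 difference was 0.18 in HIF-2α knockdown against wild type (interval 0.00 to 0.35, limma adjusted p = 0.408), and the LAMB1 differences from wild type were 0.04 in HIF-1α knockdown and -0.10 in HIF-2α knockdown (limma adjusted p = 0.921 and 0.769). Over the 12 arrays the laminin pair gave a Pearson r of 0.12 (permutation p = 0.715, adjusted 0.715) and a Spearman rho of 0.01 (permutation p = 0.973, adjusted 0.973), and r was -0.06 without the 2 arrays farthest from the median. For LAMC1 and NID1, the chain and its linker, no value over the pooled arrays is given because NID1 fell into 3 separate clusters. After subtracting the mean of each group, Pearson's r was 0.28 (permutation p = 0.382, adjusted 0.382) and Spearman's rho 0.34 (permutation p = 0.277, adjusted 0.353), and r was 0.40 for the collagen IV pair and 0.39 for the laminin pair (permutation adjusted p = 0.317 each).

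**Figure D2:**
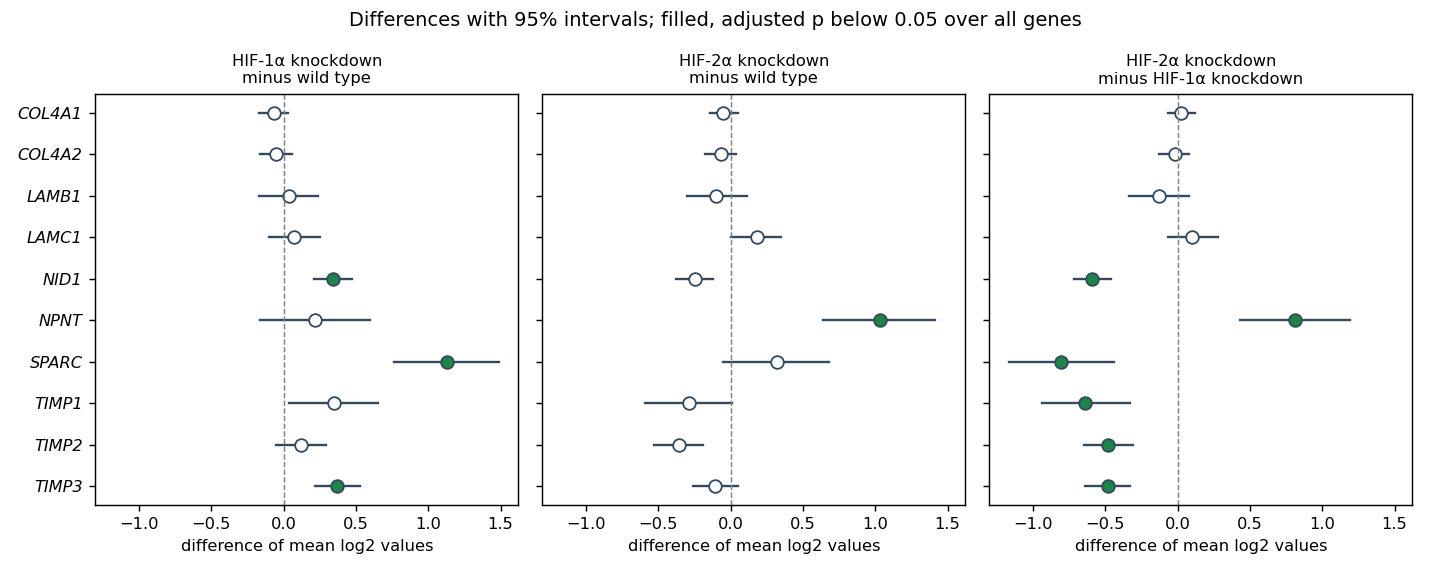
Log2 difference of each gene in the 3 comparisons (panels), with points for the estimate, bars for the 95% interval from limma and filled points for an adjusted p below 0.05. Against wild type, the filled points of SPARC in HIF-1α knockdown and NPNT in HIF-2α knockdown are differences with which the genes were listed. They are not read as tests. In HIF-2α against HIF-1α knockdown 5 filled points lie below 0 and NPNT lies above, while the intervals of the collagen IV and laminin genes include 0.

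In their means, 5 of the 10 genes (NID1, TIMP1, TIMP2, TIMP3 and LAMB1) were in the order HIF-1α knockdown, wild type, HIF-2α knockdown from high to low, as were 3598 of all genes (19.6%). TIMP3 had this order by its brighter probe set only, since by the dimmer one HIF-2α knockdown was 0.20 above wild type. LAMB1 lost it without the raised-floor arrays (-0.07 in HIF-1α knockdown against wild type). The median log2 difference over the 10 genes was 0.17 in HIF-1α knockdown against wild type, -0.08 in HIF-2α knockdown against wild type and -0.30 in HIF-2α against HIF-1α knockdown. Over all genes those medians were 0.00, -0.01 and -0.01.

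The genes whose levels ran most like those of the 6 members called in a comparison are given by Pearson correlation over the 12 arrays, as a description, since the arrays of a group share its condition. NID1 was followed by LRP10 (r = 0.941), PIM1 and KCNG3 (0.934 each), and SPARC by TSPYL2 (0.920), LDHD (0.914) and FYN (0.910). NPNT was followed by PRKACB (0.955), ERP27 (0.946) and ZNF774 (0.940). TIMP1 was followed by PRLR (0.936), FMO5 (0.930) and UCP2 (0.918), TIMP2 by LTBR (0.963), SHC1 (0.961) and C2CD2L (0.960), and TIMP3 by HEPACAM (0.979), PEA15 (0.973) and PXDC1 (0.956). The 9 genes named for the TIMP genes were all different.

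Calls in the wider matrix lists are given as counts, and nothing is read from them. Over all genes 2.77% were called between the knockdowns, 0.962% in HIF-1α knockdown against wild type and 0.788% in HIF-2α knockdown against wild type. No share over all genes is given for the counts at an unadjusted p below 0.05, which are a description only. Among the other basement membrane genes (further collagen IV and laminin chains, perlecan and similar components) 24 of 26 were measured and 0 were called by limma in any of the 3 comparisons, with medians of -0.03 in HIF-1α knockdown against wild type, -0.02 in HIF-2α knockdown against wild type and 0.01 between the knockdowns. At an unadjusted p below 0.05 there were 1, 1 and 3 of them in the same order. The smallest adjusted p between the knockdowns was that of FRAS1, an extracellular matrix protein of the epithelial basement membrane, which averaged 10.28 ± 0.16 in HIF-2α knockdown and 9.93 ± 0.11 in HIF-1α knockdown (log2 difference 0.35, SE 0.10, limma adjusted p = 0.0822). COL4A5, another collagen IV chain, had the smallest p of the list against wild type, at 0.13 in HIF-1α knockdown (limma adjusted p = 0.375) and 0.15 in HIF-2α knockdown (limma adjusted p = 0.346).

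Among 23 of 24 other matricellular genes 1 fell in HIF-2α knockdown. CCN2, the connective tissue growth factor, averaged 10.94 ± 0.19 in HIF-2α knockdown, against 11.67 ± 0.17 in HIF-1α knockdown and 11.61 ± 0.17 in wild type (log2, SD, n = 4 each). It was lower than in wild type (log2 difference -0.67, SE 0.11, limma adjusted p = 0.0156) and lower than in HIF-1α knockdown (-0.73, SE 0.11, limma adjusted p = 0.00326), and the first call was lost without the raised-floor arrays (adjusted p = 0.132). In HIF-1α knockdown against wild type 0 of the 23 were called by limma, 1 passed an unadjusted p of 0.05, and this was POSTN, which encodes periostin (-0.16, limma adjusted p = 0.31).

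Of the 26 genes for TIMP4, RECK and the metalloproteinases, the enzymes that TIMPs inhibit, 1 was called between the knockdowns and 0 against wild type by limma, where 3 passed an unadjusted p of 0.05 in either knockdown. MMP14, a membrane-anchored metalloproteinase, averaged 7.29 ± 0.09 in HIF-2α knockdown and 7.56 ± 0.05 in HIF-1α knockdown (log2 difference -0.28, SE 0.06, limma adjusted p = 0.0206). The call was lost without HIF-1α knockdown replicate 3 or 4, without HIF-2α knockdown replicate 4 and without the raised-floor arrays (adjusted p up to 0.079). In HIF-2α knockdown the MMP14 mean lay at the low end of the array medians (7.29 to 7.41), and whether it was above background was not determined. TIMP4, the fourth inhibitor of the family, was 0.15 below wild type in HIF-1α knockdown (-0.15, limma adjusted p = 0.224) and 0.12 higher in HIF-2α than in HIF-1α knockdown (limma adjusted p = 0.357). Its 4 HIF-1α knockdown arrays lay below all wild type arrays, where 7.84% of all genes had no overlap. TIMP4 averaged 7.09 to 7.24 in the groups, below every array median. Whether it was above background was not determined, and nothing is read from its direction.

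Of 23 of 26 matrix receptors measured, 2 integrin genes were lower in HIF-2α than in HIF-1α knockdown and 0 were called against wild type by limma, where 2 in HIF-1α knockdown and 5 in HIF-2α knockdown passed an unadjusted p of 0.05. ITGB5, the integrin β5 chain, averaged 9.64 ± 0.04 in HIF-2α knockdown and 10.02 ± 0.15 in HIF-1α knockdown (log2 difference -0.38, SE 0.07, limma adjusted p = 0.015). ITGA2, which encodes the α2 chain of a collagen receptor, averaged 9.74 ± 0.23 and 10.43 ± 0.28 in those groups (-0.68, SE 0.16, limma adjusted p = 0.0382), with overlapping arrays. ITGB5 lost its call without HIF-1α knockdown replicate 3 and without the raised-floor arrays (adjusted p up to 0.0621). ITGA2 lost its call in 10 of 22 alternatives (up to 0.191), among them centring and the fit without the raised-floor arrays. ITGA6, part of laminin receptors, was 0.37 above wild type in HIF-2α knockdown (limma adjusted p = 0.07) and 0.28 above it in HIF-1α knockdown (limma adjusted p = 0.147).

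In the list for folding and export of collagen and laminin, 15 of 16 genes were measured and 1 was called. SERPINH1, the collagen chaperone HSP47, averaged 10.17 ± 0.09 in HIF-1α knockdown, 9.85 ± 0.07 in HIF-2α knockdown and 9.78 ± 0.14 in wild type. It rose in HIF-1α knockdown against wild type (log2 difference 0.38, SE 0.07, limma adjusted p = 0.0251) and was lower in HIF-2α than in HIF-1α knockdown (-0.31, SE 0.07, limma adjusted p = 0.0355). The first call held in 14 of 22 alternatives and the second in 13 of 22, with adjusted p up to 0.142 and 0.132. Both were lost after centring, without the raised-floor arrays and with the trended robust prior. FKBP10, a prolyl isomerase that helps collagen fold, had the smallest p in HIF-2α knockdown against wild type (-0.30, limma adjusted p = 0.172).

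**Figure D3:**
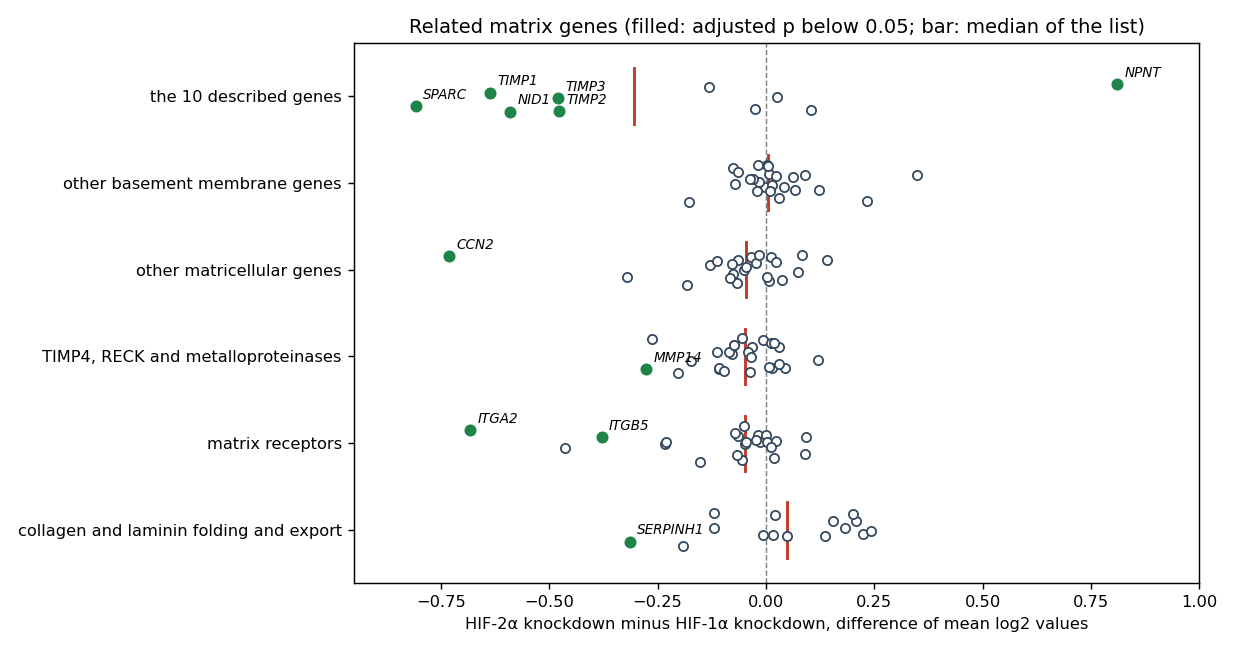
Log2 difference between HIF-2α and HIF-1α knockdown for the 10 genes and 5 related lists, 1 point a gene, filled where the adjusted p from limma was below 0.05, with a bar at the median of the list. The median of the 10 genes is -0.30, and those of the related lists lie between -0.05 and 0.05.

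Markers of the cell types a spheroid could hold were read beside these genes. All 12 measured of 13 hepatocyte markers of HepG2 were above the array median, and their mean per array was 11.65 to 11.93 in HIF-1α knockdown, 12.15 to 12.69 in HIF-2α knockdown and 12.22 to 12.66 in wild type. Of them, the fibrinogen genes FGA, FGB and FGG were higher in HIF-2α than in HIF-1α knockdown by 1.55, 2.38 and 1.27 on the log2 scale (limma adjusted p = 1.68e-05, 1.66e-07 and 0.000107). Over all genes 2.77% were called between the knockdowns. There 11 of the 12 markers had a higher mean in HIF-2α knockdown (median 0.40), and 4 had no overlap of arrays (9.08% of all genes). In HIF-1α knockdown against wild type, the comparison in which NID1 and TIMP3 rose, all 12 markers had a negative difference (median -0.51). Of these, 8 had no overlap of arrays (7.84% of all genes there) and 3 were called (0.962% of all genes): FGA (-1.21), FGB (-1.75) and FGG (-0.68). In HIF-2α knockdown against wild type FGB (0.63) and FGG (0.60) were called higher, and the median over the 12 was -0.08. These calls held in 17 and 10 of 22 alternatives (limma adjusted p up to 0.208 and 0.271). The FGG call in HIF-1α knockdown against wild type held in 16 of 22 (up to 0.168). Each of these FGB and FGG calls was lost after centring and without the raised-floor arrays. Stromal markers were mostly dim, 4 of 12 above the array median, with means per array of 7.16 to 7.22 in HIF-1α knockdown, 7.09 to 7.19 in HIF-2α knockdown and 7.12 to 7.21 in wild type. PDGFRB was called lower in HIF-2α knockdown, by -0.40 against wild type (limma adjusted p = 0.0109) and by -0.35 against HIF-1α knockdown (0.0105), and ACTA2 had the smallest p in HIF-1α knockdown against wild type (0.28, limma adjusted p = 0.306). Endothelial markers, 2 of 10 above the array median, had means of 7.05 to 7.09 in HIF-1α knockdown, 6.98 to 7.02 in HIF-2α knockdown and 6.99 to 7.08 in wild type, and 0 of 10 were called by limma in any comparison (at most 1 at an unadjusted p below 0.05), PECAM1 differing by -0.44 between the knockdowns (adjusted p = 0.0503). Leukocyte markers, 3 of 9 measured above the array median, had means of 8.0 to 8.08, 7.93 to 8.06 and 8.01 to 8.14 in HIF-1α knockdown, HIF-2α knockdown and wild type, with CD14 lower in HIF-2α than in HIF-1α knockdown (-0.39, limma adjusted p = 0.00899). Without the raised-floor arrays the calls of CD14 (adjusted p = 0.0555) and PDGFRB (up to 0.0974) were lost. In HIF-2α knockdown CD14 averaged 7.14 and PDGFRB 7.19, below every array median, and whether they were above background there was not determined.

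The ribosomal protein genes, read as a sign of how the RNA was amplified, also moved with the groups. The mean of the 32 measured was 11.78 to 12.10 in HIF-1α knockdown, 11.92 to 12.47 in HIF-2α knockdown and 12.07 to 12.61 in wild type, and RPL11 was lower in HIF-1α knockdown than in wild type (-0.78, limma adjusted p = 0.0368), a call that held in 13 of 22 alternatives. In HIF-1α knockdown against wild type 31 of the 32 had a negative difference (median -0.42), and 12 had no overlap of arrays (7.84% of all genes). Between the knockdowns all 32 had a higher mean in HIF-2α than in HIF-1α knockdown (median 0.32), and in all 32 the arrays overlapped. RPL11 alone was called there (0.76, limma adjusted p = 0.0206), where 2.77% of all genes were called. This call held in 16 of 22 alternatives. Without the raised-floor arrays the RPL11 calls in both comparisons were lost. Over the alternatives its limma adjusted p reached 0.204 in HIF-1α knockdown against wild type and 0.143 between the knockdowns. The brightest value of an array was 13.85 to 14.14 in HIF-1α knockdown, 13.92 to 15.05 in HIF-2α knockdown and 14.24 to 14.97 in wild type. The part of the cell type markers, the ribosomal protein genes or the brightest values in the differences of the 10 matrix genes was not tested.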

How the data were processed

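The authors deposited 1 table of processed log2 values for 12 arrays and 32321 probe sets, made from amplified, biotin-labelled total RNA per the labels' protocols. The log base is inferred from the range of 5.93 to 15.1, and the sources used here do not give the background correction, summarization or normalization. No array was dropped. Probe sets with 1 gene symbol (19158; 1388 had several, 11775 none) were reduced to the brightest per gene over the 12 arrays, giving 18404 genes; 637 genes had more than 1 probe set. Symbols were updated through the gene identifiers of the platform annotation (19128 matched by identifier, 4 by symbol, 26 kept).

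Differences are those of mean log2 values, tested by limma 3.58.1 in R 4.3.3 (lmFit with 1 mean per group over all 12 arrays, eBayes) with Benjamini-Hochberg adjustment over the 18404 genes; genes below 0.05 were called. Limma was tested on simulated data with known changes. The genes and all gene lists were chosen with earlier results of these data known, so adjusted p-values describe the members. The text names the 10 genes, HIF1A, EPAS1, up to 5 called genes per related list and comparison (otherwise the 1 with the smallest p), and the 3 genes most correlated with each called member. Alternatives were quantile normalization, centring on array medians, leaving out each array or the 3 raised-floor arrays, fitting only the groups compared, a replicate block, a filter on low levels, the mean of a gene's probe sets, a trended robust prior and array weights; TIMP3 by its dimmer probe set was added after seeing the data. For a gene other than TIMP3 the setting with the dimmer TIMP3 probe set repeats the main fit. Averaging probe sets leaves the values of a gene with 1 probe set unchanged. Leaving out an array of a group outside a comparison leaves the difference unchanged. All of these still count among the alternatives. Correlations used scipy 1.17.1 and permutation tests that shuffled arrays without regard to their groups. Protein sequences were not used here.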

Additional observations from a re-analysis of the deposited data

Results flagged for a closer look

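The 2 knockdowns differed from each other, by the limma comparison of HIF-2α knockdown minus HIF-1α knockdown on the log2 scale, in NID1 (-0.59), SPARC (-0.81), NPNT (0.81), TIMP1 (-0.64), TIMP2 (-0.48) and TIMP3 (-0.48) among the 10 matrix genes. The same held for the targeted genes HIF1A (1.48) and EPAS1 (-1.09). In the related matrix lists it held for CCN2 (-0.73), ITGA2 (-0.68), ITGB5 (-0.38), SERPINH1 (-0.31) and MMP14 (-0.28). Among the marker genes it held for the fibrinogen chains FGA (1.55), FGB (2.38) and FGG (1.27), for RPL11 (0.76), for the macrophage marker CD14 (-0.39) and for the stromal marker PDGFRB (-0.35). SPARC and NPNT enter with knockdown arrays already known to differ from wild type when the genes were listed.

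Single arrays stood far from the other 3 of their group in 2 cases among the 99 groups of arrays examined. Chance gives about 1 in 20, a larger share, so the 2 cases are a description only. CCN2 was 11.93 in HIF-1α knockdown replicate 3, against 11.56 to 11.62 in the others. SERPINH1 was 9.57 in wild type replicate 2, a raised-floor array, against 9.83 to 9.87 in the others.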

How the results depend on the processing

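Between the knockdowns NID1, TIMP2 and TIMP3 passed under all 22 alternatives, some of which could hardly change the result. For NID1 and TIMP2 the setting with the dimmer TIMP3 probe set repeats the main fit, and averaging probe sets leaves their values unchanged. Leaving out a wild type array leaves the difference between the knockdowns unchanged for every gene. The count of members called was 3 to 6 when 1 array was left out (3 without HIF-1α knockdown replicate 2). The counts against wild type include SPARC in HIF-1α knockdown and NPNT in HIF-2α knockdown, differences known when the genes were listed, so those entries say nothing about stability. In HIF-1α knockdown against wild type the count was 3, and 1, with neither NID1 nor TIMP3, after quantile normalization, after centring and with the trended robust prior, 0 without the 3 raised-floor arrays, and 1 to 3 without single arrays (1 without wild type replicate 1 or HIF-1α knockdown replicate 3). In HIF-2α knockdown against wild type the count was 1, and 3 after quantile normalization (NID1 and TIMP2 added), 2 with the trended robust prior (TIMP2 added), 0 without the raised-floor arrays and with array weights, and 0 to 1 without single arrays (0 without wild type replicate 4 or HIF-2α knockdown replicate 1). The causes were not tested; leaving out the raised-floor arrays also leaves 9 arrays, 2 of them wild type. Direction reversed for LAMB1 in HIF-1α knockdown against wild type (-0.07 without the raised-floor arrays, -0.002 to 0.09 without single arrays), for EPAS1 in the same comparison (-0.09 to 0.06 without single arrays), for TIMP3 in HIF-2α knockdown against wild type (0.05 by the mean of its probe sets, 0.20 by the dimmer one), and for the correlation of LAMB1 with LAMC1 (-0.06 without the 2 farthest arrays, -0.14 after quantile normalization, against 0.12 as deposited, 0.35 after centring and 0.39 after subtracting group means). The filter on low levels left out COL4A1 and COL4A2. A replicate block left the members called at 3, 1 and 6 and all 30 member differences on their side of the threshold; the numbers were not taken as pairs, because 5 of 12 same-numbered pairs correlated over 0.1 (from -0.171 to 0.637) and 1 array correlated best with its own number in both other groups. Whether arrays of 1 number share a culture or day is not stated, and NPNT had the same order of replicate numbers in all 3 groups.

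Over all genes, HIF-1α knockdown against wild type called 177 (150 higher, 27 lower), 254 after quantile normalization (140 and 114), 85 after centring (67 and 18), 22 without the raised-floor arrays, 396 in the groups compared alone, 288 with the trended robust prior and 605 with array weights. HIF-2α knockdown against wild type called 145 (88 and 57), 404 after quantile normalization (141 and 263), 72 after centring (34 and 38), 37 without the raised-floor arrays, 64 in the groups compared alone and 285 with the trended robust prior. The comparison of the knockdowns called 509 (178 and 331), 888 after quantile normalization (342 and 546), 337 after centring (133 and 204), 259 without the raised-floor arrays and 980 with array weights. Leaving out single arrays gave 50 to 483, 61 to 219 and 211 to 618. The files give no signal over background, which limits what the dim collagen IV probe sets can show.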
